A study of Mus musculus with 30 samples.

Results

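The genes described here are 9 genes that mark B lymphocytes, followed through 3 cell populations taken from mouse mammary tumours. They are Ms4a1, Cd79a, Cd79b, Cd22, Pax5, Ebf1, Blk, Cr2 and Fcer2a. They were picked by symbol as known B cell genes and matched by gene identifier in the 3 deposited count tables, where all 9 were found among 55401 genes. The tumours grew from 4T1, a mouse breast carcinoma line that carried green fluorescent protein. Tumour-bearing mice, given as wild-type in the labels, received C269, an antibody against extracellular NAMPT, at 2.5 mg/kg, or a control IgG1 (CTRL). Dosing was 2 times per week and went on for 1 month. The 6 groups are 4T1 C269, 4T1 CTRL, CD4 C269, CD4 CTRL, CD8 C269 and CD8 CTRL, with 5 libraries each and 30 in all.

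The 4T1 groups are cells sorted as fluorescent tumour cells, and the CD4 and CD8 groups are T cells taken from tumours with magnetic beads. None of these preparations was made to hold B cells. Strain and age of the mice are not in the labels, nor is it said whether a library is 1 mouse or a pool, so the spread between libraries may be partly technical. In bulk RNA of this kind, fewer B cells and less RNA per B cell cannot be told apart.

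B cells recognise antigen through a membrane immunoglobulin that signals through a pair of partner chains, and they mature under a small set of transcription factors. Precursors in the bone marrow switch on Ebf1 and then Pax5, mature naive cells carry complement and IgE receptors on their surface, and plasma cells lose most of these genes while they secrete antibody. B cells occur in tumours as scattered cells or in lymphoid aggregates, and they are also present in blood.

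In the order of their roles, Cd79a (chromosome 7) and Cd79b (chromosome 11) encode the signalling chains of the B cell receptor. Blk (chromosome 14) encodes a Src-family kinase that acts downstream of it. Ms4a1 (chromosome 19) encodes CD20, a 4-pass membrane protein of the B cell surface, and Cd22 (chromosome 7) encodes an inhibitory receptor that binds sialic acid. Cr2 (chromosome 1) encodes the complement receptors CD21 and CD35, and Fcer2a (chromosome 8) encodes CD23, the low-affinity IgE receptor. Pax5 (chromosome 4) and Ebf1 (chromosome 11) encode transcription factors of the B lineage, and Ebf1 is also active in adipose and stromal cells. Annotated antisense genes share 479 exonic bases with Cd22, and 125 and 636 with Pax5. Since no source used here states stranded counting, reads of those partners cannot be told apart from the members' own.

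Upstream sequence is shown for Cd79a, Cr2 and Fcer2a, because the first is a member that stayed near 0 in the T cell libraries and the other pair departs from the rest of the set in some 4T1 libraries. The windows come from RefSeq (GRCm38.p6), in the direction of transcription, and end before the first annotated exon. Of the 9 genes, 6 were in that table. The Cd79a window is chr7:24897247-24897380 on the plus strand, the Cr2 window is chr1:195176720-195176969 on the minus strand, and the Fcer2a window is chr8:3690862-3691111 on the minus strand, upstream of 1 of its 3 listed starts. Capitals mark matches, on either strand, to CAGGTG, an E-box of the kind that E proteins bind, or to GGAAGT, an ETS core.
Cd79a: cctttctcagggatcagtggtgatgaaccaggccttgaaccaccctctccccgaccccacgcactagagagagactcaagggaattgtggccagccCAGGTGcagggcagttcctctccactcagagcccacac
Cr2: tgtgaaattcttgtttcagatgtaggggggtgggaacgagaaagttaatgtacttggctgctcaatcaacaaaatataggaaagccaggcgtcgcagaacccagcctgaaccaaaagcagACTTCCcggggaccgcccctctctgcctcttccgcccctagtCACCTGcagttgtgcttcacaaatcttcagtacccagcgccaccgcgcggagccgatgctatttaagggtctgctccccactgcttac
Fcer2a: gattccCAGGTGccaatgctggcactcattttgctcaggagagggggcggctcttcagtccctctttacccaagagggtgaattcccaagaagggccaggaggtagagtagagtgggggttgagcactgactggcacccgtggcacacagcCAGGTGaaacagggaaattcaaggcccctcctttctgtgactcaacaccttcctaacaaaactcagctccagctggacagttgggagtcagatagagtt
The E-box letters occurred once in the Cd79a window of 134 bases, once in the Cr2 window and 2 times in the Fcer2a window, both of 250 bases. They occurred in 17.2% of 32851 RefSeq windows of 250 bases and in 9.75% when only 134 bases were read. The ETS letters occurred once in Cr2 and not in Cd79a or Fcer2a, against 19.7% of windows of 250 bases. The Ebf1 and Pax5 windows, also of 250 bases and not printed, had no E-box match, and Ebf1 had 1 ETS match. Neither the full palindromic form of the EBF site nor the octamer ATGCAAAT was found in these 5 windows. In windows of 250 bases they occurred in 0.779% and 1.6%. EBF sites that depart from the full palindrome were not searched for. Whether the windows, that of Cd79a included, hold such sites was therefore not tested.

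Total counts per library ran from 2178682 to 5208420, and the CD8 C269 libraries, which include the shallowest of all, held 2178682 to 3352029. Levels are given as CPM, the counts of a gene scaled to a fixed total of the counts assigned to genes in its library. The sorts held by their own genes: Cd4 was at 71.3 to 192 CPM in the CD4 libraries and 3.08 to 27.9 CPM in the CD8 libraries, and Cd8a was at 335 to 685 CPM in the CD8 libraries and 6.88 to 50.6 CPM in the CD4 libraries. The 4T1 libraries were not free of blood cells, since Ptprc, which encodes the leukocyte antigen CD45, was at 55.6 to 857 CPM there. Libraries 9 and 10, both 4T1 C269, stood apart from the rest: they had 4408 and 5348 CPM of the gut mucin Muc2, against at most 10.6 CPM in any other library, and 0.449 and 0.193 CPM of Xist. Results in the 4T1 fraction are therefore given with and without them. The libraries are named by the numbers of their columns in the deposited tables, which carry no order.

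**Figure D1:**
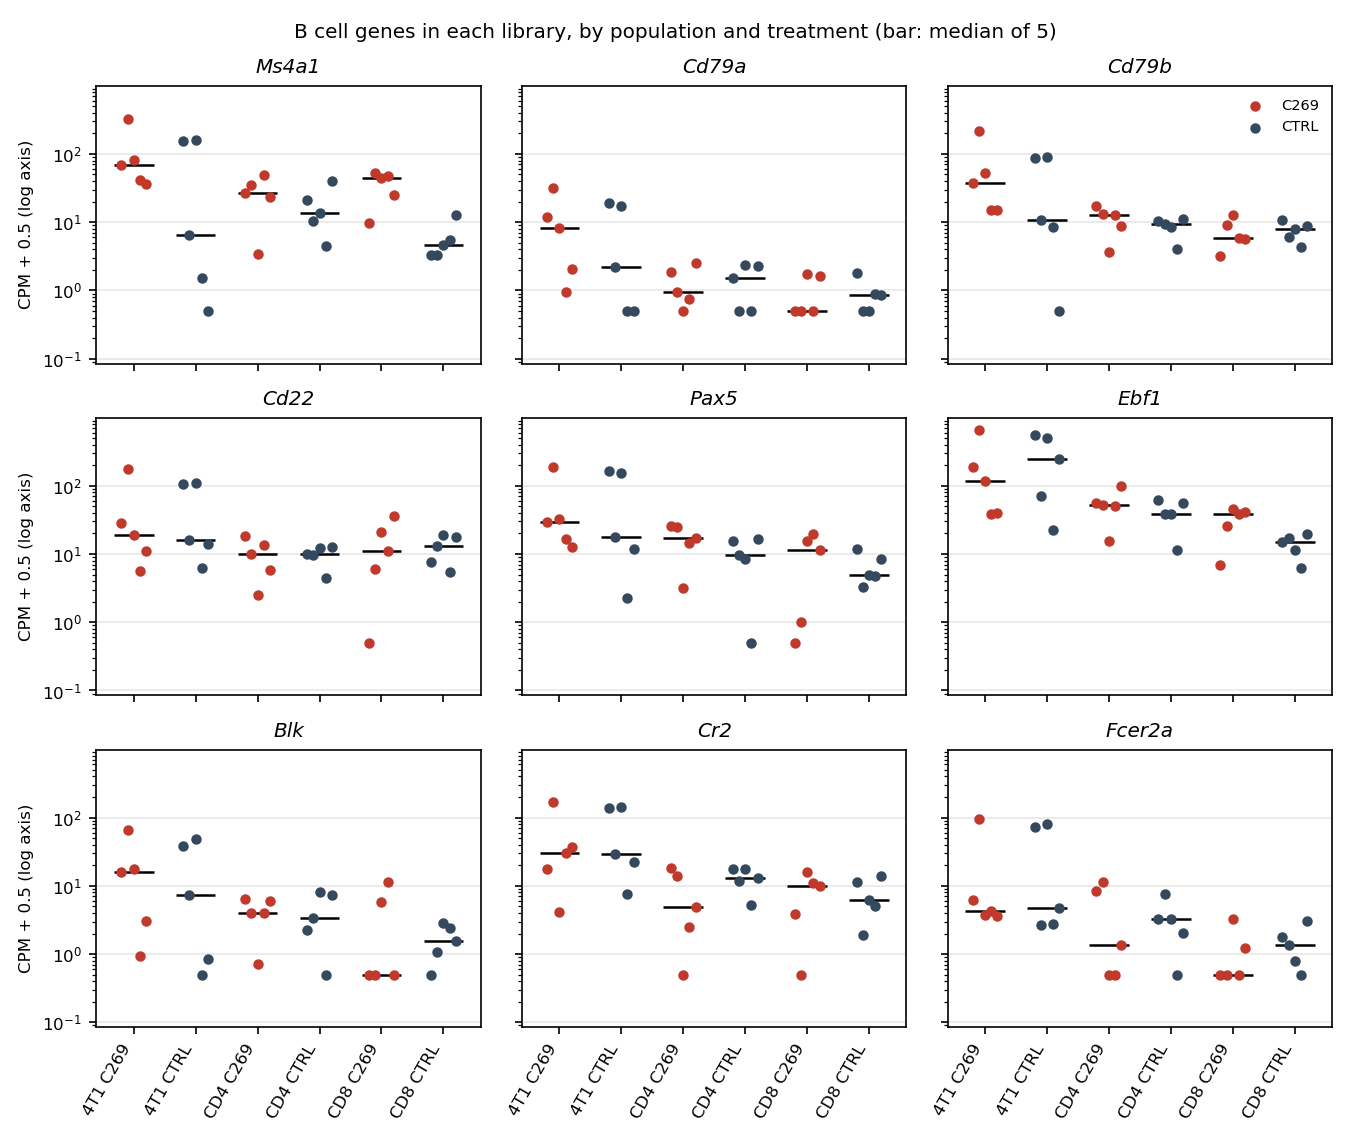
CPM of each of the 9 B cell genes in each of the 30 libraries, with 0.5 added and a log axis; points are libraries, bars are medians of 5, and C269 is drawn left of CTRL within each population. The widest spread is in the 4T1 groups, where 3 libraries carry most of the signal, and in CD8 the Ms4a1 points of C269 lie above those of CTRL in 4 of 5 libraries.

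B cell transcripts were found in all 3 populations, and the sum of the 9 genes was highest in 3 libraries of the 4T1 fraction. That sum ran from 149 to 1904 CPM in 4T1 C269 and 47.7 to 1338 CPM in 4T1 CTRL. It ran from 25.8 to 175 CPM in CD4 C269 and 27.3 to 157 CPM in CD4 CTRL, and from 21.7 to 159.99 CPM in CD8 C269 and 30.8 to 82.6 CPM in CD8 CTRL. With all libraries, the ranges of 4T1 C269 and CD8 CTRL did not overlap, and those of every other pair of groups did. Libraries 9 and 10 had the lowest sums in 4T1 C269, at 149 and 156 CPM. Without them the range of 4T1 C269 was 332 to 1904 CPM. That lay above every CD4 and CD8 library and still overlapped the range of 4T1 CTRL.

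Per kilobase of exonic sequence, which allows levels of different genes to be compared, Cd79b or Ebf1 stood at the top in most groups. In 4T1 C269, Cd79b averaged 47.1 ± 60.4 CPM per kb and Ebf1 20.97 ± 26.01 CPM per kb, and in 4T1 CTRL they averaged 26.9 ± 31.1 and 28.6 ± 24.9 CPM per kb (SD, n = 5). In CD4 C269 the leading levels were Cd79b at 7.42 ± 3.66, Ebf1 at 5.55 ± 3.03 and Ms4a1 at 4.35 ± 2.69 CPM per kb, and CD4 CTRL had the same order, at 5.73 ± 1.96, 4.18 ± 2.00 and 2.84 ± 2.24 CPM per kb. In CD8 C269 Ms4a1 came first, at 5.71 ± 2.91 CPM per kb, whereas in CD8 CTRL it was 5th, at 0.873 ± 0.629 CPM per kb. Cd79a, whose protein pairs with that of Cd79b, was last in 4T1 CTRL, both CD4 groups and CD8 CTRL, at 0.278 to 5.06 CPM per kb. In every group each gene's range over the libraries overlapped that of the next gene in the order. Because the genes were measured in the same libraries, this overlap does not show whether neighbours differ within a library.

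In the 4T1 fraction the 9 genes went up and down together by library, across the treatments. Ms4a1 was at 68.2, 319.9, 82.3, 40.4 and 35.5 CPM in 4T1 C269 libraries 6 to 10, against 156, 5.96, 159, 1.00 and 0 CPM in 4T1 CTRL libraries 1 to 5. Library 7 of C269 and libraries 1 and 3 of CTRL thus stood above all others, and libraries 4 and 5 of CTRL held almost none. Cd79b followed this order, at 36.6, 219.5, 52.2, 14.6 and 14.5 CPM in C269 against 85.7, 10.2, 88.3, 8.03 and 0 CPM in CTRL. Pax5 was also highest in libraries 7, 1 and 3, with a different order below them. It was at 29.1, 186, 32.1, 16.2 and 12.4 CPM in C269 against 163, 17.04, 153, 1.76 and 11.4 CPM in CTRL. Library 7 was the highest 4T1 library for all 9 genes, and libraries 1 and 3 held the next places for all 9. Cd79a was the lowest in CPM of these, at 0.449 to 30.7 CPM in C269 and 0 to 18.4 CPM in CTRL. By the counts of all genes, libraries 1 and 3 were the closest replicate pair of the 4T1 fraction. The labels do not say whether they are separate mice.

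**Figure D2:**
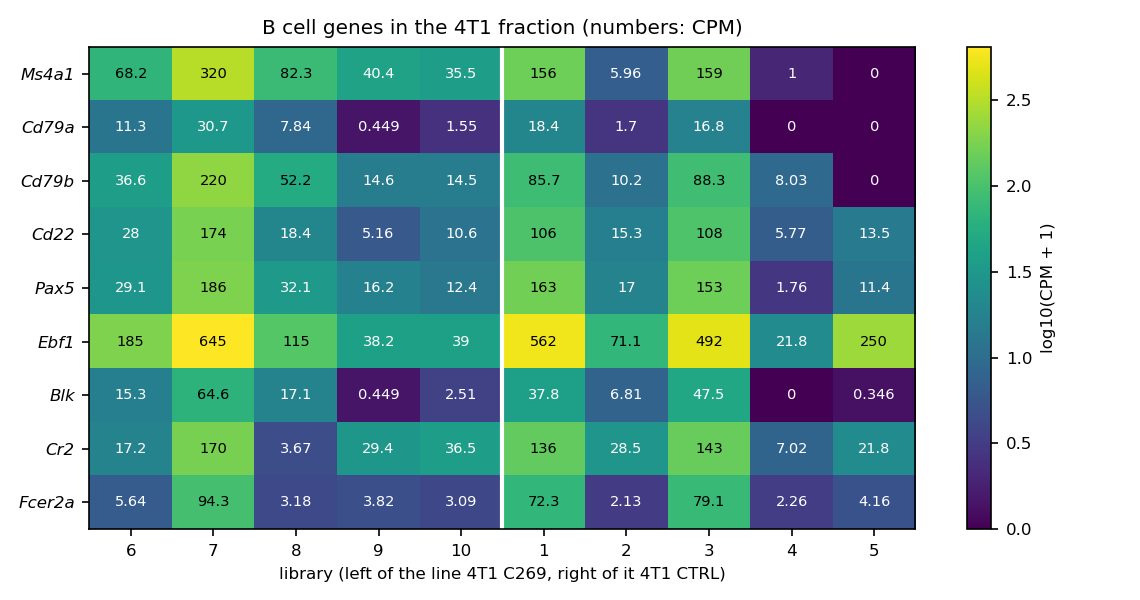
CPM of the 9 genes (rows) in the 10 libraries of the 4T1 fraction (columns), C269 left of the white line and CTRL right of it; colour is log10(CPM + 1) and the printed number is CPM. Libraries 7, 1 and 3 are high in every row, and Ebf1 alone is also high in library 5.

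C269 was compared with CTRL in the 4T1 fraction by the quasi-likelihood test of edgeR over 12875 genes. None of the 9 genes was called at an adjusted p under 0.05, where the share of all genes called was 0% (0 genes; 1557 had an unadjusted p under 0.05, and DESeq2 called 998, or 5.64%). The estimates went from -0.54 for Fcer2a to 0.80 for Cd79b on the log2 scale, with standard errors from 0.97 to 1.36. Of the 9, 4 were positive and 5 negative, with a median of -0.07, against a median of 0.04 over all genes tested. The sign did not hold with other sets of libraries: without libraries 9 and 10, Cd22, Pax5, Ebf1 and Fcer2a had estimates of 0.57, 0.24, 0.20 and 0.10. Leaving out library 7 alone gave negative estimates for all 9, from -3.06 for Fcer2a to -0.25 for Ms4a1.

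Ebf1 was the member that parted from the others in 1 library. It was at 185, 645, 115, 38.2 and 39.0 CPM in 4T1 C269, against 562, 71.1, 492, 21.8 and 250.03 CPM in 4T1 CTRL. The last of these, library 5, had 250.03 CPM of Ebf1 although Ms4a1, Cd79a and Cd79b had no count there and Blk had 0.346 CPM. Cr2, Cd22, Pax5 and Fcer2a were at 21.8, 13.5, 11.4 and 4.16 CPM in library 5, so not all other members were near 0 there. A count of 0 in library 5 allows up to 1.04 CPM, for counting error alone. The same library had the highest sum of 11 fibroblast and pericyte genes, at 54368 CPM, while the sums ran from 1921 to 14876 CPM in 4T1 C269 and from 3247 to 11088 CPM in the other 4T1 CTRL libraries. Col1a1, a chain of collagen I, was at 13039 CPM in library 5, and Dcn, which encodes decorin, at 5365 CPM. What part those cells have in the Ebf1 level was not tested.

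**Figure D3:**
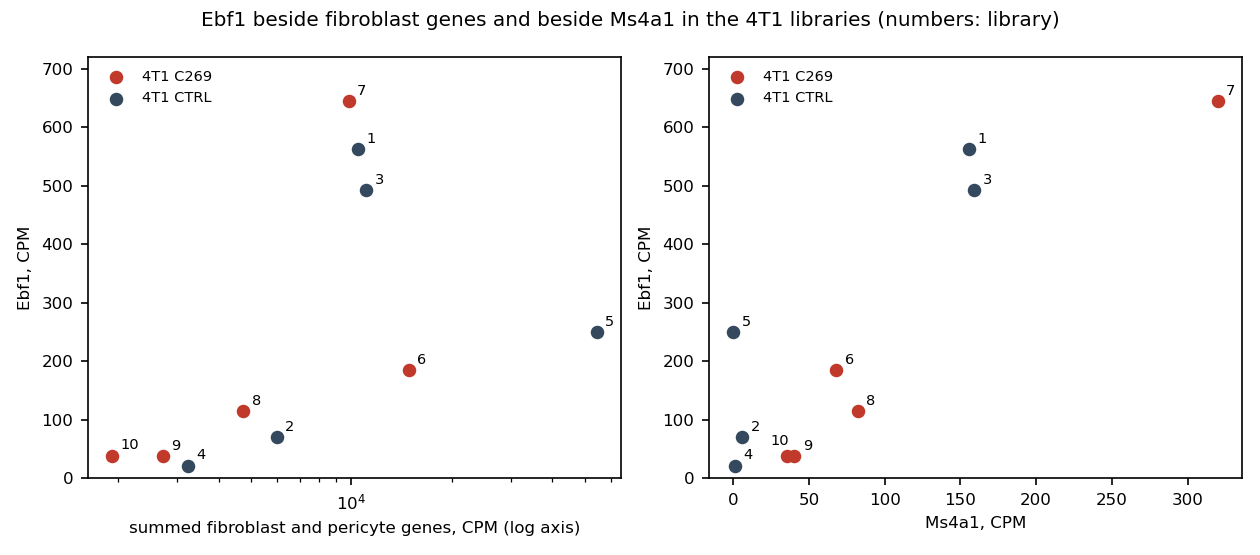
Ebf1 CPM in the 10 libraries of the 4T1 fraction, against the summed CPM of 11 fibroblast and pericyte genes on a log axis (left) and against Ms4a1 CPM (right); numbers are libraries. Library 5 has 250.03 CPM of Ebf1 with 0 CPM of Ms4a1 and the highest fibroblast sum, 54368 CPM.

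Cr2 and Fcer2a, receptors of mature naive B cells, varied in their ratio to Ms4a1 among the 4T1 libraries. Cr2 was at 17.2, 170.1, 3.67, 29.4 and 36.5 CPM in 4T1 C269, against 136, 28.5, 143, 7.02 and 21.8 CPM in 4T1 CTRL. Fcer2a was at 5.64, 94.3, 3.18, 3.82 and 3.09 CPM in C269, against 72.3, 2.13, 79.1, 2.26 and 4.16 CPM in CTRL. Libraries 6 and 8 of C269 therefore had 68.2 and 82.3 CPM of Ms4a1 with little of either receptor. The ratio of Fcer2a to Ms4a1 was 0.0828 and 0.0387 in libraries 6 and 8, against 0.295 in library 7 of the same group and 0.464 and 0.496 in libraries 1 and 3 of CTRL. The ratio of Cd79b to Ms4a1, in contrast, lay within 0.536 to 0.686 in these 5 libraries. Libraries 9 and 10 had Cr2 to Ms4a1 ratios of 0.728 and 1.03 but Fcer2a to Ms4a1 ratios of 0.0944 and 0.0870. These ratios, and the libraries set side by side, were chosen after their values were seen and are given without a test.

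**Figure D4:**
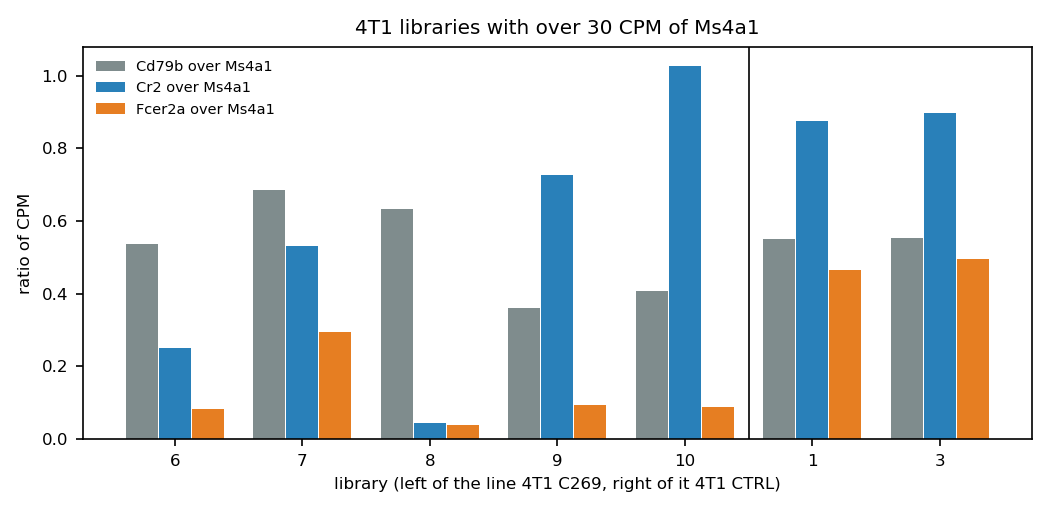
Ratio of the CPM of Cd79b, Cr2 and Fcer2a to that of Ms4a1 in the 4T1 libraries with over 30 CPM of Ms4a1, C269 left of the line and CTRL right of it. Fcer2a is at 0.464 and 0.496 of Ms4a1 in libraries 1 and 3, at 0.295 in library 7 and below 0.1 in libraries 6, 8, 9 and 10.

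Of 12 immunoglobulin constant region genes in the same fraction, 6 were highest in library 7, as the members were, 5 in library 8 and 1 in library 9. Ighd, the constant region of IgD, which naive B cells carry, was at 21.2, 196, 7.35, 28.5 and 20.7 CPM in 4T1 C269, against 153, 16.6, 178, 0 and 0 CPM in 4T1 CTRL, so it was high where Fcer2a was. Ighg1, the constant region of IgG1, was at 2889.8, 4935, 11740.1, 20.2 and 30.3 CPM in 4T1 C269, against 409, 18.7, 434, 19.8 and 140.3 CPM in 4T1 CTRL. Its highest value, in library 8, came with 3.18 CPM of Fcer2a. By mean CPM over all libraries, Igkc, Igha, Ighg1 and Ighm were the highest of the list, and Ighd is named outside that rule. Igkc was at 5663 to 23145 CPM in 4T1 C269 and 118 to 3292 CPM in 4T1 CTRL. Igha was at 1704 to 12814 CPM in C269 and 4.68 to 1560 CPM in CTRL. Ighm was at 54.3 to 3298 CPM in C269 and 14.2 to 915 CPM in CTRL. Jchain, which links secreted antibody and is made by plasma cells, was at 661 to 1935 CPM in C269, highest in libraries 9 and 8, and at 11.1 to 342 CPM in CTRL. Of 8 plasma cell genes, 3 were highest in library 9, 2 in library 7 and 1 each in libraries 4, 6 and 8. Those in library 9 were Jchain, Xbp1, at 262 CPM, and Sdc1, at 189 CPM. Derl3 was highest in library 8, at 40.2 CPM. Irf4, a transcription factor also used by activated B and T cells, was highest in library 7, at 158 CPM. Prdm1, a regulator of plasma cell formation, was highest in library 4, at 54.7 CPM.

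The 4T1 groups did not overlap for Jchain, which held for 2.3% of 12875 genes, yet edgeR did not call the difference (log2 difference 2.94 ± 0.85 (SE), adjusted p = 0.355), nor that of Ighg1 (4.17 ± 1.60, adjusted p = 0.367). DESeq2, which called 5.64% of genes in this comparison, called 3 of the 12 constant region genes higher in C269, Ighg1, Igkc and Igha. It also called 3 of 8 plasma cell genes higher, Jchain (adjusted p = 0.00536), Derl3 and Tnfrsf17. Without libraries 9 and 10, edgeR called none of either list, with a Jchain difference of 2.73 ± 0.91 and an adjusted p of 0.809. DESeq2 on those 8 libraries, run after the values were seen, called 0.807% of genes, among them Ighg1, Ighg3 and Tnfrsf17 but not Jchain (adjusted p = 0.276).

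Red cell RNA was present in the same fraction. Hbb-bs, a beta globin, was at 18136, 5445, 4741, 43.8 and 31.1 CPM in 4T1 C269 libraries 6 to 10, against 11507, 744, 12081, 94.3 and 406 CPM in 4T1 CTRL libraries 1 to 5. The 3 libraries highest in the B cell genes, 7, 1 and 3, thus all had at least 5445 CPM of it, but library 6 had the most, with 68.2 CPM of Ms4a1. Whether blood in the tumours carried the B cell RNA was not tested.

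Set against the T cells of CTRL tumours, the 4T1 fraction had more RNA of these genes on average. Against CD8 CTRL, 8 of 9 members were called higher in 4T1 CTRL by edgeR in the fit of all 30 libraries, where 17.5% of 14731 genes were called higher, 14.6% lower and 32.1% in either direction. Ebf1 was the clearest, at 562, 71.1, 492, 21.8 and 250.03 CPM in 4T1 CTRL against 14.6, 16.7, 10.8, 5.77 and 19.3 CPM in CD8 CTRL. It was the 1 of 9 members whose groups did not overlap, where 12.7% of all genes lay wholly higher in 4T1 CTRL and 25.4% did not overlap in either direction (log2 difference 4.41 ± 0.83 (SE), adjusted p = 0.000231). The others called had log2 differences from 2.49 for Cd79b to 5.04 for Fcer2a. Cd22 was not called (2.10 ± 0.90, adjusted p = 0.0743). DESeq2, which called 20.4% of 24992 genes in either direction, called 9 of 9 members, with an adjusted p of 0.0462 for Cd22. Means hide the spread, because 2 of 5 4T1 CTRL libraries had less Ms4a1 than every CD8 CTRL library. The count fell to 5 without library 1 and to 5 without library 3, the libraries with most of the RNA, and also to 5 without CD8 CTRL library 22.

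Against CD4 CTRL, all 9 estimates were again positive, from 2.03 for Ms4a1 to 3.61 for Fcer2a, but only Ebf1 was called higher. In that comparison 2.15% of 14731 genes were called higher, 3.75% lower and 5.89% in either direction. Ebf1 was at 562, 71.1, 492, 21.8 and 250.03 CPM in 4T1 CTRL and at 60.4, 37.5, 38.6, 11.003 and 56.3 CPM in CD4 CTRL, with 4 of 5 4T1 CTRL libraries above every CD4 CTRL library (log2 difference 2.90 ± 0.77 (SE), adjusted p = 0.0222 by edgeR). The call was lost without 4T1 CTRL library 1 (adjusted p = 0.0509) and without CD4 CTRL library 12 or 13 (0.0647 and 0.0600). Without libraries 9 and 10, which are in neither group but enter the fit of all libraries, 4 members were called. DESeq2 called 5 members, with 9.87% of genes called.

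CD8 and CD4 cells of CTRL tumours were compared in the same fit. None of the 9 was called, where 7.01% of 14731 genes were called in either direction, 1.76% higher and 5.25% lower. DESeq2, which called 9.88%, called no member either. Of the 9 estimates 8 were negative, Ebf1 at -1.52 ± 0.76 (SE, adjusted p = 0.272 by edgeR) and Ms4a1 at -1.64 ± 1.03 (adjusted p = 0.423) among them. Ms4a1 was at 2.81, 2.83, 4.19, 5.00 and 12.2 CPM in CD8 CTRL against 20.9, 9.93, 13.1, 4.00 and 39.9 CPM in CD4 CTRL. In a fit of these 10 libraries alone, which tested 12109 genes and 6 of the members, both passed, with an adjusted p of 0.0434 for Ms4a1 and 0.0110 for Ebf1. Cd22 ran the other way, with 3 of 5 CD8 CTRL libraries above every CD4 CTRL library, and was not called (0.44 ± 0.89, adjusted p = 0.860).

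In the CD8 fraction, Ms4a1 had the largest difference with C269 among the members. It was at 9.12, 52.4, 43.7, 46.9 and 24.6 CPM in CD8 C269 libraries 26 to 30, against 2.81, 2.83, 4.19, 5.00 and 12.2 CPM in CD8 CTRL libraries 21 to 25. The groups overlapped only through library 26 of C269 and library 25 of CTRL, and 4 of the 5 C269 values exceeded the highest CTRL value. The means were 35.4 ± 18.01 CPM in C269 and 5.40 ± 3.89 CPM in CTRL (SD, n = 5), on 433 and 82 counts in all. The log2 difference was 2.72 ± 0.54 (SE), but its edgeR p of 0.000126 gave an adjusted p of 0.574 over 10943 genes. In that test 0.00914% of genes were called, which is 1 gene, Cd24a, named here after its value was seen (log2 difference 2.13, adjusted p = 0.0289).

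The call depended on the test. DESeq2 gave nearly the same log2 difference, 2.74, with an adjusted p of 0.00113, in a test that called 0.128% of genes, and edgeR without the filter on low counts gave an adjusted p of 1.19e-05. In the authors' deposited table, which gives CTRL over C269, Ms4a1 stood at -1.88 on the log2 scale with an adjusted p of 0.000771. Its standard error there was 0.368, against 0.530 in the DESeq2 test here, so the sizes may not be directly comparable. Every left-out library kept the estimate between 2.55 and 3.26, and none brought the edgeR adjusted p under 0.05.

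The other members did not share the size of the Ms4a1 difference in CD8. Ebf1 came nearest, at 6.46, 24.9, 44.4, 38.5 and 40.3 CPM in CD8 C269 against 14.6, 16.7, 10.8, 5.77 and 19.3 CPM in CD8 CTRL, and again 4 of the 5 values in C269 exceeded the highest in CTRL. Its log2 difference was 1.204 ± 0.472 (SE), with an edgeR adjusted p of 0.739. Cd79b was at 2.66, 8.48, 12.2, 5.43 and 5.22 CPM in CD8 C269 against 10.2, 5.66, 7.49, 3.85 and 8.23 CPM in CD8 CTRL, so the groups overlapped widely (-0.06 ± 0.59). The remaining tested members, Cr2, Cd22 and Pax5, had log2 differences of 0.12, 0.25 and 0.58, with standard errors of 0.78 to 0.91. Cd79a, Blk and Fcer2a were too low in CD8 to be tested, with 7, 39 and 11 counts over the C269 group and 7, 18 and 16 over CTRL. Over the 6 tested members the median was 0.41, against 0.01 over all genes tested. As a share of the 9-gene sum, Ms4a1 made up 42.1%, 57.1%, 27.3%, 33.1% and 19.4% in CD8 C269, against 4.72%, 6.54%, 7.82%, 16.3% and 14.7% in CD8 CTRL, which do not overlap. This share was chosen for display after its values were seen and has no test.

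**Figure D5:**
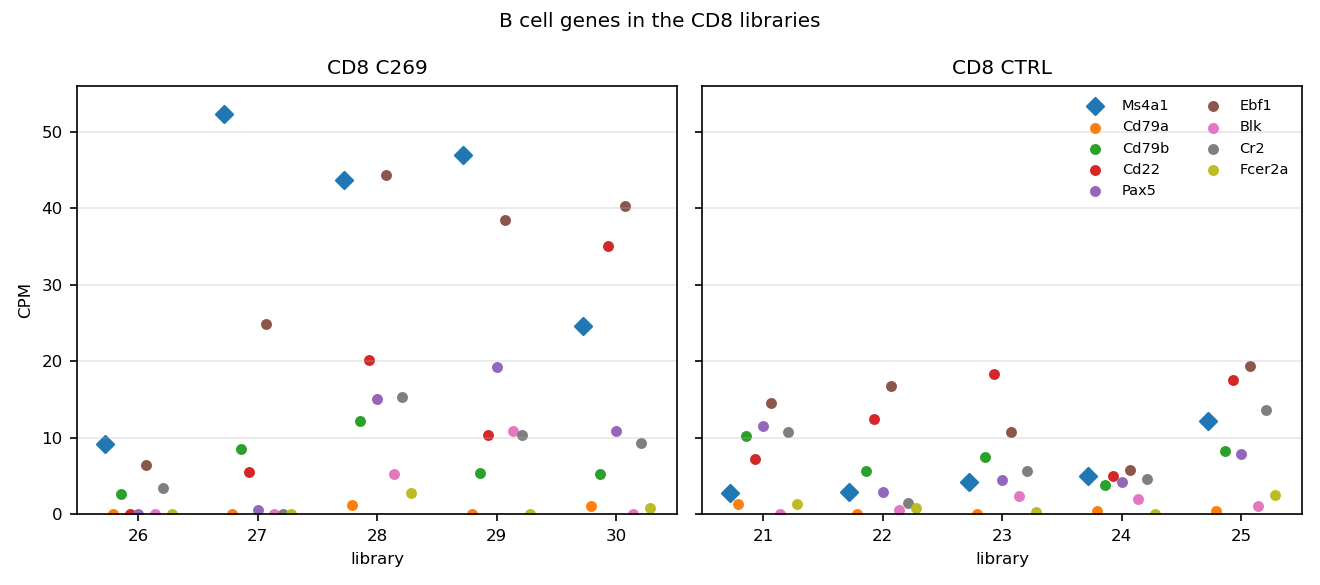
CPM of the 9 genes in the 5 CD8 C269 libraries (left) and the 5 CD8 CTRL libraries (right); diamonds are Ms4a1 and circles the other genes. Ms4a1 reaches 52.4 CPM in C269 and 12.2 CPM in CTRL, Ebf1 reaches 44.4 and 19.3 CPM, and the other members overlap widely between the treatments.

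Estimates for other B cell transcripts in CD8 went both ways. Of 12 immunoglobulin constant region genes, 11 were tested, 8 with a positive and 3 with a negative estimate (median 0.66), and edgeR called none. Ighm, the constant region of IgM, was at 168, 376, 434, 824 and 261 CPM in C269 against 131, 169, 177, 105 and 131 CPM in CTRL, 4 of the 5 C269 values exceeding the highest CTRL value (1.55 ± 0.34, edgeR adjusted p = 0.574). It was the 1 gene of the list that DESeq2 called (adjusted p = 0.00704). Ighg2b, an IgG2 constant region, ran the other way, at 1.14, 0, 13.2, 4.45 and 4.10 CPM in C269 against 8.70, 8.49, 105.7, 50.4 and 37.6 CPM in CTRL (-3.11 ± 0.82, edgeR adjusted p = 0.739), and so did Ighg2c (-3.33 ± 0.94, adjusted p = 0.739). Of 26 further B cell genes, 23 were tested in CD8, 11 with a positive and 12 with a negative estimate, and none was called (median -0.04). Of 8 plasma cell genes, edgeR tested 5, 4 with a positive and 1 with a negative estimate (median 0.70), and called none. DESeq2 called 1 of them, Sdc1 (adjusted p = 0.0184). Sdc1 was at 46.0, 79.8, 8.87, 81.5 and 50.3 CPM in C269 against 16.6, 5.38, 9.28, 13.1 and 17.9 CPM in CTRL (2.10 ± 0.49, edgeR adjusted p = 0.739).

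Estimates for genes of several other cell types were mostly positive in CD8 as well, with none called by edgeR or DESeq2. They were positive for 5 of 5 tested epithelial genes (median 1.56), 6 of 7 fibroblast and pericyte genes (1.56), 4 of 4 red cell genes (1.17) and 5 of 6 neutrophil genes (0.90). Macrophage genes differed, with 2 of 8 estimates positive (median -0.52). The summed levels overlapped between the groups: 49.3 to 617 CPM in C269 and 37.1 to 109 CPM in CTRL for 9 epithelial genes, and 605 to 8034 CPM in C269 and 720.01 to 1459 CPM in CTRL for 11 fibroblast and pericyte genes. For 7 red cell genes they were 123 to 2969 CPM in C269 and 231 to 570.1 CPM in CTRL, and for 10 neutrophil genes 419.7 to 2068 CPM in C269 and 302 to 575 CPM in CTRL. In C269, 0 to 2 of the epithelial, 0 to 3 of the fibroblast, 1 to 3 of the red cell and 0 to 5 of the neutrophil genes were at 0 in a library, and in CTRL 0 to 3, 2 to 3, 1 to 3 and 0 to 1. Library 29 had the highest fibroblast, red cell and neutrophil sums and the highest Jchain of the CD8 libraries, 394 CPM. Library 28, with 43.7 CPM of Ms4a1, had the lowest fibroblast sum of all 10 and the lowest epithelial sum of C269. What part other cells in the bead preparations have in the Ms4a1 difference was not tested.

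In CD4, C269 and CTRL differed less in Ms4a1 and no member was called, where 0% of 12393 genes were (0 genes; 697 had an unadjusted p under 0.05, and DESeq2 called 17, or 0.11%). Ms4a1 was at 26.3, 34.4, 2.89, 48.4 and 22.7 CPM in CD4 C269 against 20.9, 9.93, 13.1, 4.00 and 39.9 CPM in CD4 CTRL, so the groups overlapped (log2 difference 0.57 ± 0.57 (SE), edgeR adjusted p = 0.927). Library 18 of C269 and library 14 of CTRL were the lowest of their groups for Cd79b, Cd22, Pax5, Ebf1 and Blk. Pax5 was at 24.99, 24.5, 2.67, 13.96 and 16.9 CPM in C269 against 15.02, 9.02, 7.96, 0 and 15.9 CPM in CTRL, 3 of 5 C269 libraries lying above every CTRL library (0.76 ± 0.66, adjusted p = 0.920). Cr2 had the only estimate of similar size in the other direction. It was at 17.5, 13.3, 0, 1.99 and 4.37 CPM in C269 against 17.3, 11.3, 16.9, 4.75 and 12.4 CPM in CTRL (-0.77 ± 0.71, adjusted p = 0.926). Cd79a was too low in CD4 to be tested, at 0 to 2.04 CPM in C269 and 0 to 1.87 CPM in CTRL.

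Whether C269 acted differently on these genes in 2 populations was tested in the fit of all 30 libraries, and no member was called. The effect on Ms4a1 was larger in CD8 than in CD4 by 2.12 ± 1.40 on the log2 scale (SE, unadjusted p = 0.140, adjusted p = 0.99996). It was smaller in 4T1 than in CD8 by an estimate of -1.94 ± 1.38 (adjusted p = 0.508). For 4T1 against CD4 the estimate was 0.19 ± 1.34 (adjusted p = 0.986). Of 14731 genes, 0%, 0.00679% and 0.00679% were called in these 3 tests, and 0.103%, 0.452% and 3.59% by DESeq2, which called no member. The 1 gene called by edgeR in each of the last 2 was Celsr1, no member, named after its values were seen. The fit of all 30 libraries shares its estimate of spread with the 4T1 groups, where Ms4a1 ran from 0 to 319.9 CPM. Within CD8 and within CD4 alone, the standard errors of the C269 effect on Ms4a1 were 0.54 and 0.57. A different response of Ms4a1 in CD8 cells is therefore not shown, and this fit does not exclude it.

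Across libraries the members varied together once the mean of each group had been taken away. Pearson r between log2 CPM of 2 members had a median of 0.72 over the 36 pairs and 30 libraries, from 0.49 for Cd79b with Cr2 to 0.90 for Ms4a1 with Cd79b. The median was 0.85 within the 4T1 libraries, 0.76 within CD4 and 0.50 within CD8, with 10 libraries each. Pax5 followed the mean of the other 8 most closely (r = 0.90), and Cr2 least (r = 0.70). Points that share a library also share its depth and its other cells, so these values are a description and carry no test.

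The 8 other genes most like the members were Cxcr5 (r = 0.95), Fcmr (0.93), Tnfrsf13c (0.90), Ccr7 (0.89), Carmil2 (0.89), Smc6 (0.89), Mef2c (0.88) and Btla (0.87). They were taken from 15788 genes by Pearson r with the mean of the 9 over 30 libraries, group means removed. Among them, Cxcr5 and Ccr7 encode chemokine receptors that B and T cells use to enter lymphoid follicles and T cell zones. Fcmr encodes a receptor for IgM and Tnfrsf13c the receptor for the survival factor BAFF. Mef2c and Btla are also expressed in other cells. Cxcr5 was at 26.9, 96.9, 14.2, 2.25 and 5.02 CPM in 4T1 C269 against 84.7, 4.26, 89.6, 0 and 0 CPM in 4T1 CTRL. Like the members, it was highest in libraries 7, 1 and 3.

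A list of 26 further B cell genes was counted in the same tests. In 4T1 CTRL against CD8 CTRL, edgeR called 10 of 26 higher and none lower, where it called 17.5% of all genes higher, and DESeq2 called 10. In 4T1 CTRL against CD4 CTRL, edgeR called 1 of 26 higher, where it called 2.15% of all genes higher. That gene was Mef2c, a transcription factor that B cells share with myeloid and muscle cells (2.03 ± 0.60, adjusted p = 0.0398). DESeq2 called 7 of 26 there, with 9.87% of all genes called. The 3 other genes of this list with the highest mean CPM, Cd37, Bach2 and Pou2f2, were not called there by edgeR. T cells also express them. None of the 26 was called for C269 against CTRL in any population, nor between CD8 and CD4.

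Genes of germinal centre B cells and of B cell precursors were read in the 4T1 libraries as well. The summed level of 6 germinal centre genes was 34.4 to 252 CPM in 4T1 C269 and 84.4 to 144 CPM in 4T1 CTRL, with none of the 3 tested members called for C269. Bcl6 and S1pr2, which other cells express too, had more of it than the other 4 genes together in each of the 10 libraries. The sum of 6 B cell precursor genes was 28.4 to 134 CPM in 4T1 C269 and 68.6 to 443 CPM in 4T1 CTRL, with 1 to 5 of the 6 at 0 in a library. Most of it was Cd93, which endothelial and myeloid cells also express, at 26.7 to 127 CPM in C269 and 61.8 to 442.5 CPM in CTRL. The other 5 genes, among them Vpreb1 and Rag1, were at 6.37 CPM or less.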

How the data were processed

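RNA of 4T1, CD4+ and CD8+ cells from tumours was sequenced in 6 groups of 5 libraries. Reads were counted per gene with featureCounts, per the submitters' processing notes, which also name FastQC, DESeq2 and mm9; the aligner is not given in the sources used here. The authors deposited raw counts for each library in 3 tables, together with baseMean, a signal of normalized counts, log2 fold changes of CTRL over C269, a Wald score, and p-values, per the file headers. Gene starts matched GENCODE M21 (GRCm38) for 99.61% of identifiers found. Numbered columns were assigned to groups because each deposited condition column equals the sum of 5 of them. Counts of 7 ribosomal RNA features (0.579% to 7.95% per library) were left out of totals and tests.

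C269 and CTRL were compared within each population, and populations in CTRL as well as differences of the C269 effect in a fit of 30 libraries, by edgeR 4.0.16 (R 4.3.3) after filterByExpr and TMM, with Benjamini-Hochberg adjustment over all tested genes and a threshold of 0.05. The standard error is the log2 difference over the root of F. DESeq2 1.42.0, another normalization, no filter on low counts, ribosomal RNA kept, other sets of libraries and each library left out were tried. Simulated data were used for the main edgeR tests, and for DESeq2 only in C269 against CTRL within each population. The other alternatives were not run on simulated data. Libraries held 2178682 to 5208420 counts, and floors (3 counts) cover counting error only. Among 60 replicate pairs the closest, libraries 1 and 3 of 4T1 CTRL, had a chi-square per degree of freedom of 6.53, so none was treated as the same library. The next closest pair of the series had 6.59, and the other 4T1 CTRL pairs had 24.9 to 91.5. Whether libraries 1 and 3 are separate mice is not in the labels. All 9 members are named. Other lists are given by counts and up to 4 genes by mean CPM, and the 8 genes most like the members by Pearson r. Ighd, Ighg2b, Ighg2c, Ighg3, Prdm1, Derl3 and Tnfrsf17 are named outside the rule of mean CPM. A Dixon ratio above 0.71 marked a single library. The members, lists and alternatives were chosen with earlier results of these data known, and 143 of 144 list symbols were found. Some single genes of the lists are not reported here.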

Additional observations from a re-analysis of the deposited data

Results flagged for a closer look

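In 10 of 54 sets of 5 libraries, the highest library lay apart from the others by more than Dixon's 95% critical value of 0.71, where chance gives about 1 in 20. Of these, 8 were the same library, library 7 of 4T1 C269. Its levels there were 319.9 CPM of Ms4a1, 219.5 CPM of Cd79b, 174 CPM of Cd22, 186 CPM of Pax5, 645 CPM of Ebf1, 64.6 CPM of Blk, 170.1 CPM of Cr2 and 94.3 CPM of Fcer2a. Since the 9 genes share the library, these are not separate observations. In CD8, library 25 of CTRL had 12.2 CPM of Ms4a1, and library 28 of C269 had 2.75 CPM of Fcer2a, on 9 counts.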

How the results depend on the processing

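Counts of members called were unchanged under every alternative for C269 against CTRL in 4T1 and CD4 and for the differences of the C269 effect (0). In CD8 it was 0 and became 1 (Ms4a1) with DESeq2 and with no filter on low counts. CD8 against CD4 had 0, and 2 of the 6 members tested in a fit of the 2 groups only. 4T1 against CD4 had 1, but 5 with DESeq2, 4 without libraries 9 and 10, and 0 to 2 with single libraries left out. 4T1 against CD8 had 8 of 9, and 5 of the 6 members tested in a fit of the 2 groups only, where Cd79b was not called (adjusted p = 0.0589), Cd22 was (0.0458), and Cd79a, Blk and Fcer2a were too low to be tested. Single libraries left out gave 5 to 9. The cause was not tested. No paired analysis was possible because the replicate letters of the titles cannot be assigned to the numbered columns.

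Signs of members turned as follows. Without libraries 9 and 10, the log2 differences in 4T1 of Cd22, Pax5, Ebf1 and Fcer2a were 0.57, 0.24, 0.20 and 0.10. With single libraries left out, those in 4T1 ran from -0.25 to 1.41 for Ms4a1, -0.51 to 1.13 for Cd79a, -0.45 to 1.38 for Cd79b, -1.70 to 0.45 for Cd22, -1.68 to 0.25 for Pax5, -1.11 to 0.83 for Blk, -1.67 to 0.11 for Cr2 and -3.06 to 0.13 for Fcer2a. In CD4 they ran from -0.39 to 0.25 for Cd22, -0.43 to 0.33 for Blk and -0.38 to 1.11 for Fcer2a. In CD8 they ran from -0.40 to 0.14 for Cd79b, -0.40 to 0.56 for Cd22 and -0.30 to 0.48 for Cr2. For CD8 against CD4, Cd79b ran from -0.34 to 0.030, and for the C269 effect in 4T1 minus that in CD4, Ms4a1 ran from -0.81 to 0.86.

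Over all genes, DESeq2 called 998 in 4T1, 17 in CD4 and 18 in CD8 for C269, where edgeR called 0, 0 and 1. A fit of all libraries called 606 in 4T1 and 0 in CD8. Without the filter, edgeR called 83 in CD4 and 162 in CD8. For CD8 against CD4 edgeR called 1032, DESeq2 1582 and a fit of the 2 groups 2823; for 4T1 against CD4 it was 868 and 1697, and 1570 without libraries 9 and 10. For the differences of the effect, DESeq2 called 19, 75 and 617, where edgeR called 0, 1 and 1, and 6 and 58 without the filter in the last pair. Single libraries left out gave 0 to 10 calls in CD4, 564 to 873 for CD8 against CD4, 426 to 941 for 4T1 against CD4, and up to 16 and 220 in that pair. Depth limits Cd79a, Blk and Fcer2a in CD8, with 0 to 22 counts a library.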
